A study of Mus musculus with 12 samples.

Results

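Ephx1, Ephx2, Cyp2j6, Acot1, Acot2, Aldh1b1 and Slc50a1 are 7 of the 57010 genes in a bulk RNA-Seq table of NE-4C cells, a mouse neuroepithelial line made from the brain vesicles of Trp53-deficient embryos. Ephx2, Cyp2j6, Acot1, Aldh1b1 and Slc50a1 were chosen by their measured level, which was higher in Faf2 knockout cells, and Ephx1 and Acot2 were added as paralogs of Ephx2 and Acot1. The 12 libraries made 4 groups of 3: wild-type cells (WT) and Faf2 knockout cells (KO), each left untreated and collected on day 0 (NO), or treated with retinoic acid (RA) at 1 µM for 24 h and collected on day 3. The knockout was made with CRISPR/Cas9 by deleting exon 4 of Faf2, followed by puromycin selection and growth from a single colony, so that it stands for 1 line, and the replicates of a group came from separate passages. RA and the 3 days of culture went together, so that the effect of RA and that of time cannot be told apart.

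FAF2 is a protein of the endoplasmic reticulum (ER) membrane and of lipid droplets that recruits the ATPase VCP to ubiquitinated proteins. The 7 genes act on reactive lipids, aldehydes and sugars. Cytochrome P450 enzymes of the Cyp2j family place an epoxide on fatty acids such as arachidonic acid, and soluble epoxide hydrolase (Ephx2) turns these epoxides into diols. Acyl-CoA thioesterases split acyl-CoA into a free fatty acid and coenzyme A, in the cytosol (Acot1) or in mitochondria (Acot2). Aldh1b1 is a mitochondrial aldehyde dehydrogenase that can oxidise acetaldehyde and retinaldehyde, and Slc50a1 (SWEET1) carries sugars across membranes. Liver and kidney are the tissues best known for several of these enzymes.

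Levels are given as CPM, which is counts scaled to a common library total with TMM factors. The deposited counts were already corrected for gene length, so that levels can be compared between genes. Library totals ranged from 17370069 to 30738717 counts, and the floor of 3 counts in a library corresponded to 0.0837 to 0.297 CPM. All 7 genes passed the filter on low counts, as did 16502 genes in all. KO RA replicate 3 stood apart, with a TMM factor of 0.394 against 0.872 to 1.28 in the other libraries, and its summed level of 10 mesenchymal markers was 1392 CPM against at most 384 CPM in KO RA replicates 1 and 2. Many values that rest on it are therefore given with and without it, and its part in them beyond that was not tested. Neural progenitor markers were detected in every group, and their summed level ranged from 379 CPM in KO NO to 966 CPM in KO RA. Of these 8, Pax6 was called lower in KO with and without RA and Fabp7 higher in KO after RA. Their median difference between KO and WT was −0.66 without RA and 0.64 after RA. Without KO RA replicate 3, 2 were called lower without RA, and 4 higher and 1 lower after RA. The 10 markers of pluripotent cells summed to 1598 to 4114 CPM. None of the 9 tested was called between KO and WT, or 1 higher in NO and 1 lower after RA without KO RA replicate 3. Of the 12 markers of hepatocytes and visceral endoderm, 1 passed the filter, their sum was at most 4.06 CPM in any library, and Ttr and Apoa4 were at or under the floor in all groups. Of the 9 markers of kidney tubule and intestine epithelium, 4 passed the filter, while Slc34a1, Cdh16 and Umod were at or under the floor in all groups. The sum of the 9 was 114 to 166 CPM in WT NO, 137 to 190 CPM in KO NO, 80.6 to 139 CPM in WT RA and 52.9 to 85.2 CPM in KO RA. With all 12 libraries none of the 4 was called between KO and WT with or without RA. In untreated cells 2 were higher in KO at an unadjusted p under 0.05, with a median difference of 0.92. In the same comparison 2011 of the 16502 genes were under it in either direction. Without KO RA replicate 3, 2 of the 4 were called higher in KO without RA and 1 after RA. That fit called 4.43% and 4.42% of all genes as higher. The part of these markers in the levels of the members was not tested. In bulk RNA, fewer cells of a type and less RNA per cell cannot be told apart.

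The targeted gene was checked first. Faf2 stood at 49.97, 38.8 and 36.0 CPM in WT NO and at 21.0, 21.7 and 25.4 CPM in KO NO. After RA it stood at 35.1, 37.8 and 49.0 CPM in WT and at 36.1, 34.3 and 18.7 CPM in KO. The untreated groups did not overlap and the RA groups did. The log2 difference of KO NO from WT NO was −0.87 (SE 0.27, edgeR adjusted p = 0.179), or −0.86 (SE 0.16, adjusted p = 0.0111) without KO RA replicate 3. The count covers the whole gene, so that it does not test whether exon 4 is missing.

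The sequences below show where reads of Acot1 and Acot2 can and cannot be told apart, since that decides how far the levels of these paralogs are separate measurements. Acot1 (ENSMUSG00000072949, GRCm39 chr12:84056256-84065145, plus strand, 3 exons) and Acot2 (ENSMUSG00000021226, chr12:84034428-84040647, plus strand, 3 exons) lie 15.6 kb apart. Their coding sequences were 95.5% identical over 1239 aligned bases, with 56 differences and a longest identical run of 273 bases. The first pair below is the stretch of 60 coding bases with the most differences, 13, in exon 3 (Acot1 chr12:84063716-84063775, Acot2 chr12:84039438-84039497), with the differing bases in capitals. The third line is a stretch of exon 1 that is identical in both genes (Acot1 chr12:84056477-84056536, Acot2 chr12:84034992-84035051).
Acot1 exon 3: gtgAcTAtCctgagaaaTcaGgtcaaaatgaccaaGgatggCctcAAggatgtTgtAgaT
Acot2 exon 3: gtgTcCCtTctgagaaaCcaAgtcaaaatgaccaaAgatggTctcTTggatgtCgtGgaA
Acot1 and Acot2 exon 1: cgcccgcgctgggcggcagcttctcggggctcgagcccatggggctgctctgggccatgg

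Of all 100-base windows of the Acot1 transcript, 78.2% were found in no other gene, and of those of Acot2 84.4%. With windows of 31 bases the shares were 60.04% and 65.1%. Reads from the shared stretches were divided between the genes by the authors' quantification. For Ephx1, Ephx2, Cyp2j6, Aldh1b1 and Slc50a1, 100% of 100-base windows were found in no other gene. Ephx1 overlaps Tmem63a on the opposite strand, and how the counting treated strand is not given in the sources used here.

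Promoter windows ran from 250 bases before to 50 bases after the start of the GENCODE transcript on GRCm39. They were read for the 6 members other than Ephx2, whose window was not searched. Those of Ephx1, of the paralogs Acot1 and Acot2 and of Slc50a1, the gene with the largest ratio, are shown. Each is written in the direction of the gene, and capitals mark letters that matched a motif searched on both strands.
Ephx1 (chr1:180845085-180845384, minus strand): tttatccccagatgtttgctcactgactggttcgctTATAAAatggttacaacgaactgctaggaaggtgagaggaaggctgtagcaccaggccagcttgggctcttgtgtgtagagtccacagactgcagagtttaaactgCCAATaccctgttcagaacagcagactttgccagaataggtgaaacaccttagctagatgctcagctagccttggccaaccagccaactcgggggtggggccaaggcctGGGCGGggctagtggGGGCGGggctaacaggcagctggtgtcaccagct
Acot1 (chr12:84056006-84056305, plus strand): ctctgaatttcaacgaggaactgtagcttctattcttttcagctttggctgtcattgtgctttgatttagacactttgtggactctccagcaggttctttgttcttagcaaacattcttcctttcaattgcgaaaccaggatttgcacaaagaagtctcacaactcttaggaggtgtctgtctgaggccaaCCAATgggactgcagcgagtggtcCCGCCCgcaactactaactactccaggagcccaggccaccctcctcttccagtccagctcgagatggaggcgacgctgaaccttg
Acot2 (chr12:84034178-84034477, plus strand): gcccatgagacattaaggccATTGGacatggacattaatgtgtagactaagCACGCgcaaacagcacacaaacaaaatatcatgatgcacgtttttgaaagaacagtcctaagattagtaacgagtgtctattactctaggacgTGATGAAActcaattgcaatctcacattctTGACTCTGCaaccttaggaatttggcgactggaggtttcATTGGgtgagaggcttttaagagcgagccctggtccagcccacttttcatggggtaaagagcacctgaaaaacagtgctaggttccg
Slc50a1 (chr3:89177857-89178156, minus strand): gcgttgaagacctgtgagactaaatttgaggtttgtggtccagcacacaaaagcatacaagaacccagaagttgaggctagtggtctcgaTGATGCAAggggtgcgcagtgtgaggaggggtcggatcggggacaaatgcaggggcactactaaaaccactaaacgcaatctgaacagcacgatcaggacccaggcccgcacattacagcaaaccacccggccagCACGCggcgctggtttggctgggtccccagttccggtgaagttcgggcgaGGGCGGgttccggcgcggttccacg

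The GC box GGGCGG was found in Ephx1, Cyp2j6, Acot1 and Slc50a1, and in 42.5% of 21770 promoters of the same length. The CCAAT box (CCAAT) was found in 4 members, Ephx1, Cyp2j6, Acot1 and Acot2, and in 39.9% of promoters. The PPAR response element, a pair of AGGTCA half-sites 1 base apart on either strand, was found in none of the 6 and in 0.0459% of promoters, and the half-site AGGTCA in none of the 6 and in 15.1%. These letters were thus absent from the 6 windows, which says nothing of sites outside them. The core of the antioxidant response element, TGACNNNGC, was found in Acot2 (12.5% of promoters), and the xenobiotic response element core GCGTG in Acot2 and Slc50a1 (37.0%). The C/EBP-ATF core TGATGNAA was found in Acot2 and Slc50a1 (3.84%), the E-box CACGTG in Cyp2j6 (7.81%), TATAAA in Ephx1 and Aldh1b1 (13.2%), and TGACGTCA in none of the 6 (2.44%). All members are tested genes, and over 13360 promoters of tested genes the shares were 59.1% (GC box), 40.1% (CCAAT box), 0.0225% (PPAR response element) and 12.6% (half-site). They were 13.4% (antioxidant), 49.0% (xenobiotic), 2.35% (C/EBP-ATF), 9.91% (E-box), 8.04% (TATAAA) and 3.17% (TGACGTCA). Slc50a1 had 20 CpGs, against a median of 11 over all promoters, while Ephx1 had 5, Aldh1b1 5, Cyp2j6 3 and Acot1 and Acot2 8 each.

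In untreated cells, 5 of the 7 genes were higher in every KO library than in every WT library, which held for 15.5% of all genes tested. After RA, Ephx2, Cyp2j6 and Slc50a1 were again higher in every KO library, which held for 9.97% of genes, and 3.35% of genes were higher in this way in both treatments. Both paralog controls overlapped between the genotypes in untreated cells. Since the difference between KO and WT chose the members, these values are a description and carry no test, and the counts are not read as a result. Differences are log2 fold changes with their standard error from the edgeR fit.

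Among the epoxide enzymes, Ephx2 (ENSMUSG00000022040, chr14:66319338-66362011, minus strand, 19 exons) stood at 1.51, 1.07 and 0.549 CPM in WT NO and at 27.7, 22.1 and 21.1 CPM in KO NO. The highest WT library was thus far below the lowest KO library, and the difference was 4.5 on the log2 scale (SE 0.52), a 22.7-fold higher level. After RA, Ephx2 stood at 0.817, 0.630 and 0.430 CPM in WT and at 10.6, 13.4 and 3.57 CPM in KO. KO libraries again lay above all WT libraries, with KO RA replicate 3 lowest, and the difference was 3.88 (SE 0.53), or 4.25 (SE 0.37) without that library.

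Ephx1, which encodes the microsomal epoxide hydrolase of the ER membrane, did not share this pattern. Ephx1 (ENSMUSG00000038776, chr1:180803775-180848537, minus strand, 9 exons) stood at 2.15, 0.739 and 4.54 CPM in WT NO and at 3.19, 1.98 and 2.40 CPM in KO NO. Its KO libraries lay within the spread of the WT libraries, and the difference was 0.02 (SE 0.53). Leaving out WT NO replicate 3, the highest, gave 0.81, and leaving out WT NO replicate 2, the lowest, gave −0.40. After RA it stood at 1.97, 2.47 and 1.86 CPM in WT and at 1.04, 1.63 and 1.29 CPM in KO, so that all KO libraries were below all WT libraries, as in 10.9% of genes tested. That difference was −0.66 (SE 0.54). Tmem63a, which overlaps it on the opposite strand, differed by −1.41 in the same comparison (SE 0.38, adjusted p = 0.104).

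The ratio of Ephx2 to Ephx1 within a library follows in part from the choice of Ephx2 for its level in KO and is a description. It ranged from 0.121 to 1.45 in WT NO and from 0.231 to 0.415 in WT RA. In KO NO it ranged from 8.69 to 11.2, and in KO RA it was 10.2, 8.23 and 2.77 in replicates 1 to 3. The lowest KO ratio was above the highest WT ratio. Of these paralogs, Ephx1 was above Ephx2 in 5 of 6 WT libraries and Ephx2 above Ephx1 in 6 of 6 KO libraries.

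Cyp2j6 (ENSMUSG00000052914, chr4:96404375-96441935, minus strand, 9 exons), the P450 member, was close to the floor in WT cells. It stood at 0.317, 0.148 and 0.183 CPM in WT NO and at 0.144, 0.145 and 0.143 CPM in WT RA, which is 2.54 to 8.70 counts in a library. In KO NO it stood at 2.31, 3.97 and 3.71 CPM, and in KO RA at 3.07, 4.56 and 7.53 CPM. All KO libraries were above all WT libraries in both treatments, and KO RA replicate 3 held the highest value, unlike for Ephx2. The difference was 3.92 (SE 0.47) without RA and 5.08 (SE 0.51) after RA, or 4.68 (SE 0.45) without KO RA replicate 3. From the summed counts, the KO level was 16.3 times the WT level in NO (95% exact interval 10.2 to 27.9) and 31.3 times in RA (16.2 to 69.1), which covers counting error only.

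Acot1 was the most abundant of the 7 genes in KO NO. It stood at 1.44, 2.95 and 1.95 CPM in WT NO and at 54.6, 81.2 and 85.9 CPM in KO NO. The difference was 5.12 (SE 0.70), a 34.9-fold higher level. After RA, WT libraries stood at 8.31, 5.38 and 11.6 CPM and KO libraries at 59.4, 55.8 and 7.63 CPM. KO RA replicates 1 and 2 were above all WT RA libraries, whereas replicate 3 lay within them. The difference after RA was 2.29 (SE 0.62), or 2.77 (SE 0.32) without replicate 3.

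Acot2, the mitochondrial paralog, stood at 8.09, 6.17 and 5.79 CPM in WT NO and at 7.93, 7.52 and 11.2 CPM in KO NO. These ranges overlapped, and the difference was 0.41 (SE 0.41). After RA it stood at 9.03, 6.98 and 8.07 CPM in WT and at 10.0, 9.16 and 2.48 CPM in KO. The difference was −0.14 (SE 0.41) and turned to 0.25 (SE 0.23) without KO RA replicate 3. Acot2 exceeded Acot1 in all WT NO libraries, with a ratio of Acot1 to Acot2 of 0.178 to 0.479, and the ratio was 0.771 to 1.43 in WT RA. In KO NO the ratio was 6.88 to 10.8, and in KO RA it was 5.94, 6.09 and 3.08.

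Since reads can be shared among the clustered thioesterases, the counts of Acot1 to Acot6 were also summed. The sum was 8.80 ± 0.94 CPM in WT NO and 83.5 ± 18.1 CPM in KO NO (SD, n = 3), a log2 difference of 3.25 (SE 0.56). After RA it was 17.3, 12.4 and 19.7 CPM in WT and 70.2, 65.3 and 10.8 CPM in KO. A higher level in KO NO therefore did not depend on how reads were divided among these genes, although its size on the summed row was below the 5.12 of Acot1 alone. Acot1 made up 15.1% to 32.4% of the sum in WT NO, 43.5% to 58.7% in WT RA, 86.5% to 90.6% in KO NO and 70.6% to 85.4% in KO RA. Acot3, Acot4 and Acot5 never exceeded 2.11 counts in a library. Acot6 was at 0 in all WT NO libraries and at 0.498, 0.858 and 0.530 CPM in KO NO, at least 6.13-fold higher against a floor of 3 counts per library (adjusted p = 0.0275), while in RA the adjusted p was 0.0666. The Acot6 call was kept in 7 of 18 alternative settings. With summed counts of 0 in WT NO and 1 in WT RA, Acot6 passed the filter on low counts through the KO groups, so that its call is a description. Its longest identical coding run with Acot1 was 138 bases, and the part of Acot1 reads in its count was not tested.

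**Figure D1:**
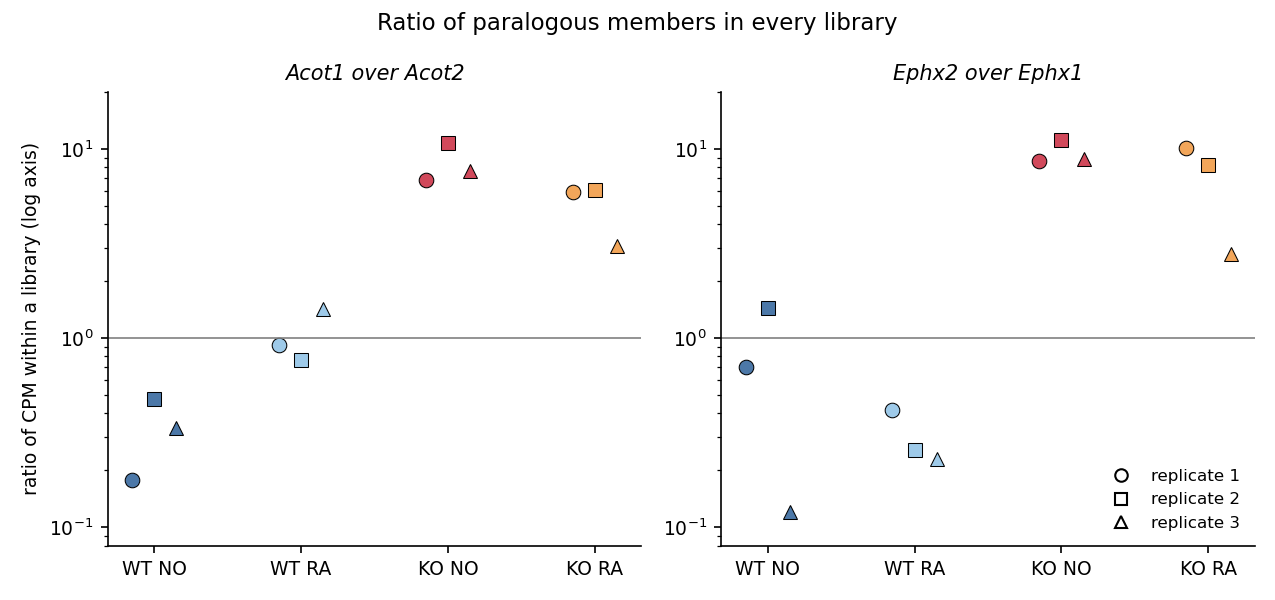
Ratio of Acot1 to Acot2 (left) and of Ephx2 to Ephx1 (right) within each of the 12 libraries, from CPM, on log axes, with symbols for the replicates and a line at a ratio of 1. Acot1 over Acot2 was at most 0.479 in WT NO and at least 6.88 in KO NO, and KO RA replicate 3 had the lowest KO ratio in both panels, 3.08 and 2.77.

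Aldh1b1 (ENSMUSG00000035561, chr4:45798886-45804604, plus strand, 2 exons) had the smallest difference of the 5 chosen genes. It stood at 4.4, 4.25 and 4.60 CPM in WT NO and at 26.5, 23.6 and 21.3 CPM in KO NO, with little spread in either group. The difference was 2.43 (SE 0.31), a 5.38-fold higher level. After RA it stood at 5.14, 3.20 and 6.97 CPM in WT and at 8.30, 8.78 and 4.85 CPM in KO. Here the groups overlapped through KO RA replicate 3, and the difference was 0.53 (SE 0.30), or 0.74 (SE 0.26) without it. Aldh1b1 was thus the chosen gene whose KO and WT levels were closest after RA.

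Slc50a1 (ENSMUSG00000027953, chr3:89175551-89177906, minus strand, 6 exons) went from barely counted to readily counted. It had 2.26, 0 and 3.58 counts in WT NO (0.0704, 0 and 0.122 CPM) and 0, 2.17 and 0 counts in WT RA. In KO NO it stood at 10.1, 9.80 and 6.81 CPM, and in KO RA at 10.8, 10.3 and 11.6 CPM. KO libraries were tight in both treatments, and KO RA replicate 3 was like the other KO RA libraries on this scale. The summed counts were 922 in KO NO against 6 in WT NO, a ratio of 131 (95% exact interval 59.8 to 357), and 661 in KO RA against 2 in WT RA, a ratio of 335 (92.3 to 2768). For genes of like length a value above 0 in 1 library only had a median of 1.99 counts, so that the WT values stand for a few fragments at most and the intervals, which treat each count as a fragment, are too narrow.

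**Figure D2:**
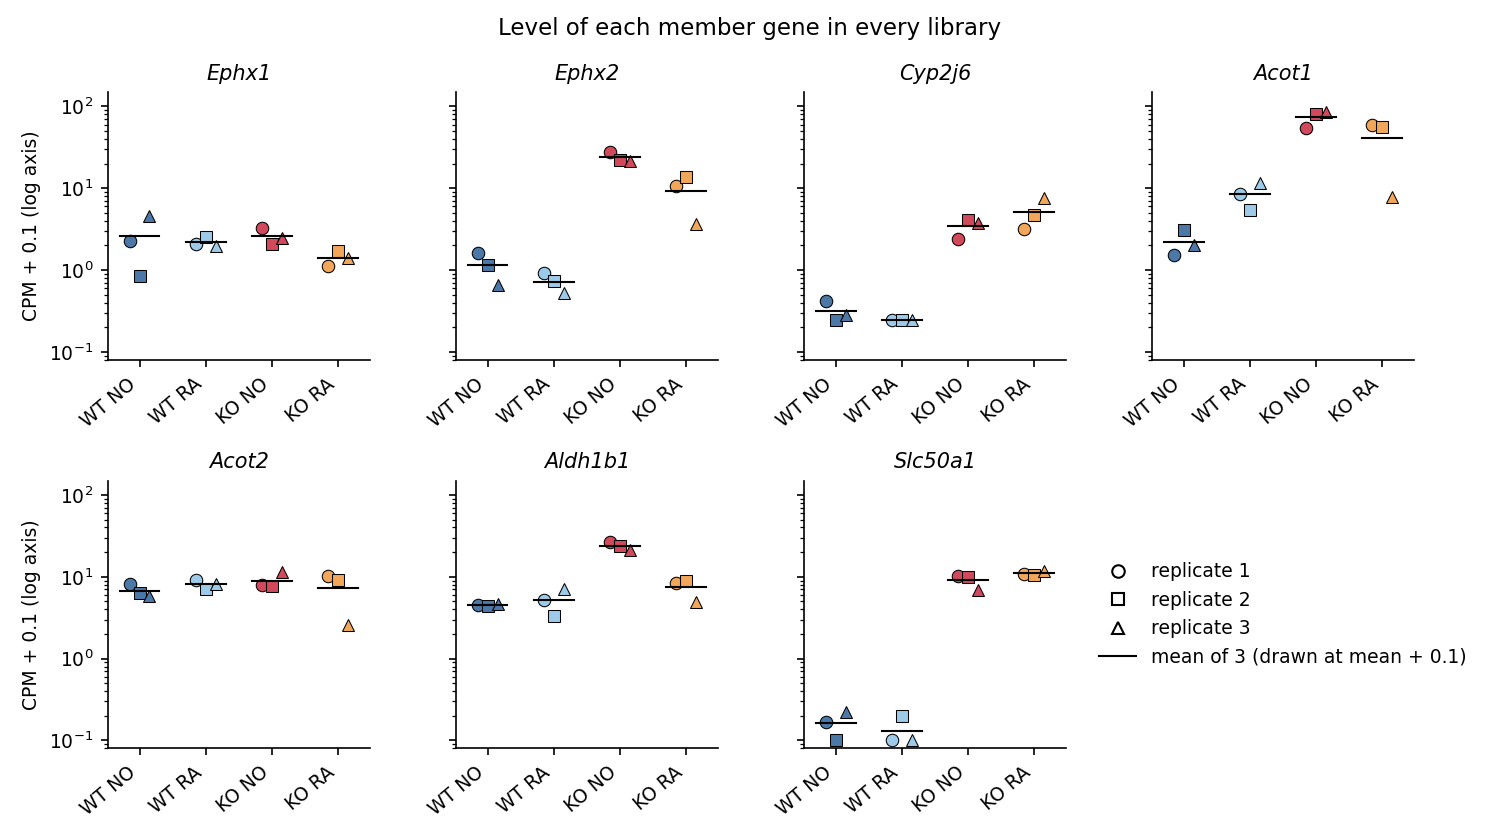
Level of each of the 7 genes in each library as CPM + 0.1 on a log axis, by group, with symbols for replicates 1 to 3 and a bar at the mean of 3. Ephx2, Cyp2j6, Acot1, Aldh1b1 and Slc50a1 lay higher in KO NO than in WT NO in every library, Ephx1 and Acot2 did not, and KO RA replicate 3 lay lowest of the KO RA libraries for Ephx2, Acot1, Acot2 and Aldh1b1 and highest for Cyp2j6 and Slc50a1.

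The place of KO RA replicate 3 depended on the scaling. In CPM without TMM factors it was the lowest KO RA library for all 7 genes, with 2.96 CPM for Cyp2j6 and 4.56 CPM for Slc50a1, which were still above all WT libraries.

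The order of levels changed with genotype. In WT NO it was Acot2 (6.68 CPM), Aldh1b1 (4.42), Ephx1 (2.48), Acot1 (2.12), Ephx2 (1.04), Cyp2j6 (0.216) and Slc50a1 (0.0641). Aldh1b1 and Ephx1, Ephx1 and Acot1, and Acot1 and Ephx2 overlapped in range. In KO NO it was Acot1 (73.9 CPM), Aldh1b1 (23.8), Ephx2 (23.7), Slc50a1 (8.91), Acot2 (8.89), Cyp2j6 (3.33) and Ephx1 (2.52). Aldh1b1 and Ephx2, Slc50a1 and Acot2, and Cyp2j6 and Ephx1 overlapped there. In WT RA, Acot1 (8.41 CPM) stood beside Acot2 (8.02) at the top with overlapping ranges, and no other neighbours in the order overlapped. In KO RA every pair of neighbours overlapped except Cyp2j6 (5.05 CPM) and Ephx1 (1.32), with Acot1 (40.9) first.

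**Figure D3:**
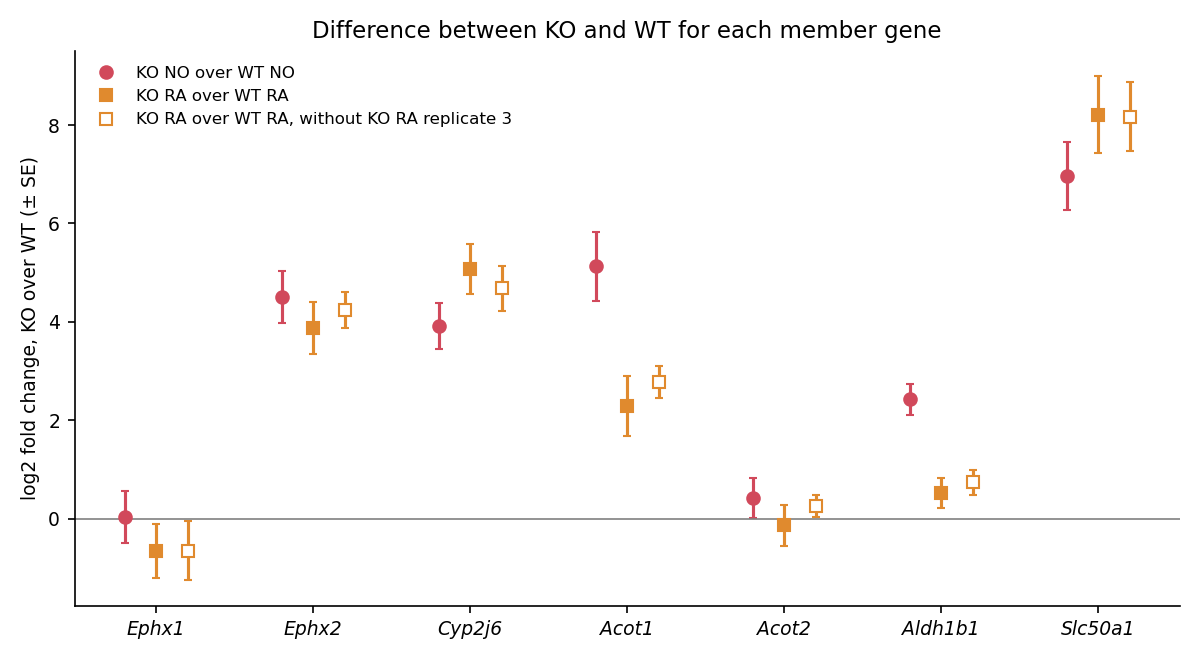
Log2 fold change of KO over WT with its standard error for each of the 7 genes, without RA (circles), after RA (filled squares) and after RA without KO RA replicate 3 (open squares). Without RA the values ran from 0.02 for Ephx1 to 6.96 for Slc50a1, whose fitted value rests on WT counts near 0. After RA, Acot1 fell to 2.29 and Aldh1b1 to 0.53.

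RA was the comparison of these genes that was tested. The RA effect averaged over both genotypes is a different contrast from KO against WT, which chose the members. Both rest on the same untreated libraries. They are independent only where the groups have like spread, which KO RA replicate 3 puts in doubt, so that the p-values below carry this limit. Cyp2j6 and Slc50a1 were left out of this reading, since they had at most 8.70 and 3.58 counts in a WT library and so passed the filter on low counts through the KO groups. None of the 5 other genes passed at an adjusted p under 0.05 (edgeR quasi-likelihood test, Benjamini-Hochberg over 16502 genes), against 8.54% of genes tested (5.42% higher and 3.12% lower), and 2 had an unadjusted p under 0.05. Aldh1b1 had an averaged RA effect of −0.74 on the log2 scale (SE 0.21, adjusted p = 0.0551). Ephx2 had −1.04 (SE 0.34, adjusted p = 0.0838). Both values point to less RNA after RA, and all 3 KO RA libraries of both genes were below all KO NO libraries, as in 17% of genes tested. Markers of other cell types moved in the same comparison. Of 10 mesenchymal markers, 7 were called higher with RA (median 3.12), or 6 without KO RA replicate 3 (median 2.01), and their sum was 59.0 to 103 CPM in WT NO, 126 to 303 CPM in WT RA, 56.4 to 57.5 CPM in KO NO and 215 to 1392 CPM in KO RA. Of 8 neural progenitor markers 4 were called higher, and of 10 neuronal markers 3 higher and 1 lower. All 4 tested markers of kidney tubule and intestine epithelium were lower at an unadjusted p under 0.05 (median −1.21), of which Lrp2, an endocytic receptor, was called. The part of these changes in the RA effects of the members was not tested.

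These calls were close to the threshold and turned on single libraries. Without KO RA replicate 3, Ephx2 (−0.85, adjusted p = 0.0283) and Aldh1b1 (−0.64, adjusted p = 0.0234) passed as lower and Acot1 passed as higher (0.81, adjusted p = 0.0228), where 11.8% of genes were called lower and 11.9% higher. Ephx2 also passed without WT NO replicate 3 (adjusted p = 0.0454) or KO RA replicate 2 (0.04999), and Aldh1b1 without WT RA replicate 3 (0.0465) or KO RA replicate 2 (0.0498). DESeq2's Wald test gave another set of calls: Ephx2 (adjusted p = 0.0212) and Aldh1b1 (adjusted p = 0.00587) passed there and Ephx1, Acot1 and Acot2 did not, and limma-voom called these and Acot1 (adjusted p = 0.0202). Over 17 alternatives the adjusted p of Ephx2 ranged from 0.0131 to 0.184, and over 18 that of Aldh1b1 ranged from 0.00587 to 0.119 and that of Acot1 from 0.0202 to 0.620. For Ephx1 and Acot2 the lowest adjusted p over all alternatives was 0.135 and 0.417.

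Within each genotype, RA responses are described without a test. For Acot1 in WT, all RA libraries (5.38 to 11.6 CPM) were above all NO libraries (1.44 to 2.95 CPM), as in 15.1% of genes tested, with a log2 difference of 1.99 (SE 0.62). For Acot1 in KO the difference was −0.85 (SE 0.59), or −0.37 (SE 0.32) without KO RA replicate 3, and the RA and NO ranges overlapped. The KO response minus the WT response was −2.84 (SE 0.85), or −2.37 (SE 0.45) without that library. The averaged RA effect of Acot1 thus joined a higher level in WT with a level in KO that was not clearly different.

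Aldh1b1 showed the opposite division. In KO it fell from 21.3 to 26.5 CPM in NO to 4.85 to 8.78 CPM in RA, a difference of −1.69 (SE 0.31), or −1.49 (SE 0.26) without KO RA replicate 3. In WT the difference was 0.21 (SE 0.30) and the ranges overlapped. The KO response minus the WT response was −1.90 (SE 0.43), or −1.70 (SE 0.35) without that library. For Ephx2 the differences were −0.73 (SE 0.52) in WT and −1.35 (SE 0.45) in KO, so that both genotypes pointed the same way. The KO difference was −0.99 (SE 0.32) without KO RA replicate 3.

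Cyp2j6 and Slc50a1 did not have a lower mean in KO after RA. For Cyp2j6 in KO the difference was 0.59 (SE 0.40), or 0.19 (SE 0.38) without KO RA replicate 3, and the ranges overlapped. Slc50a1 in KO RA (10.3 to 11.6 CPM) lay just above KO NO (6.81 to 10.1 CPM), as in 13.2% of genes tested, with a difference of 0.29 (SE 0.48). In WT both were too close to the floor for an RA response to be read. Acot2 differed by 0.26 (SE 0.41) in WT and −0.28 (SE 0.41) in KO, and Ephx1 by −0.24 (SE 0.53) and −0.93 (SE 0.54). Leaving out KO RA replicate 3 turned the KO difference of Acot2 to 0.10 (SE 0.22) and left that of Ephx1 at −0.92 (SE 0.61).

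**Figure D4:**
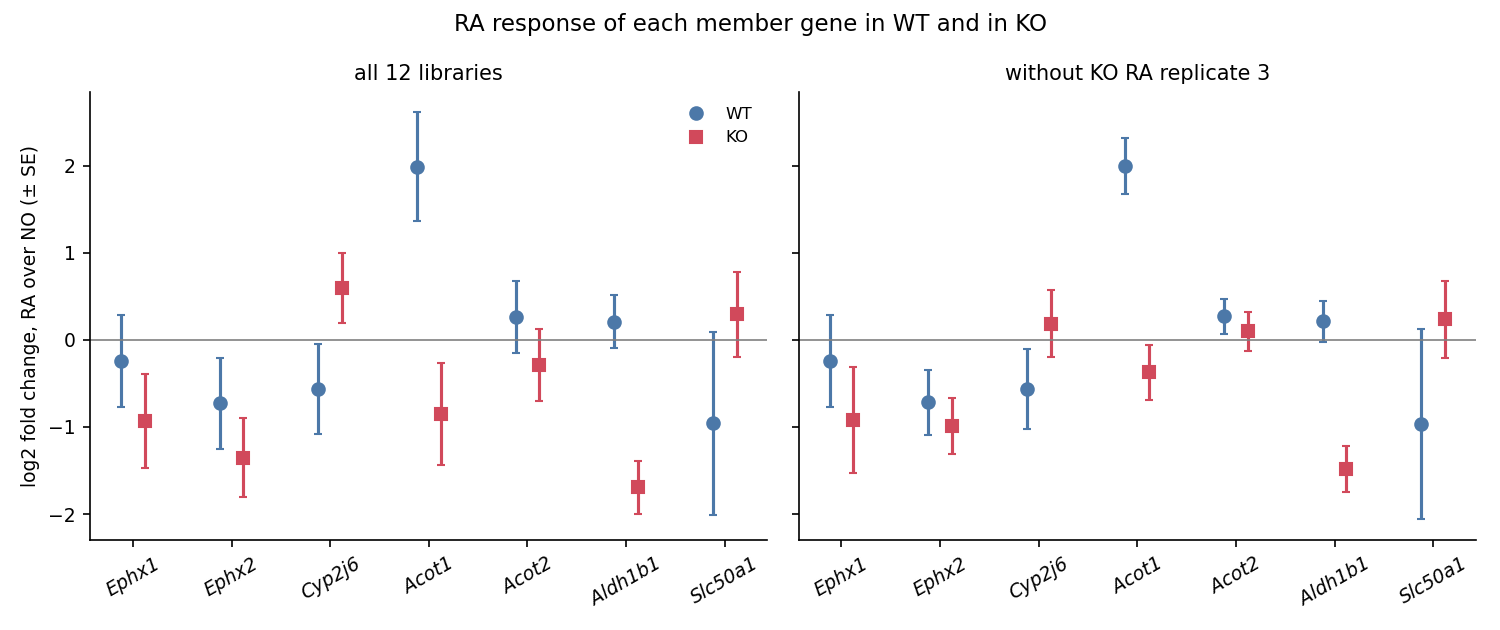
Log2 fold change of RA over NO with its standard error in WT (circles) and KO (squares) for each of the 7 genes, from all 12 libraries (left) and without KO RA replicate 3 (right). Acot1 had 1.99 in WT and −0.85 in KO, Aldh1b1 0.21 and −1.69, and both separations stood in the right panel, where the KO values were −0.37 and −1.49.

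The genes next to the members were compared to see whether a stretch of chromosome differed as a whole. For Slc50a1, Dpm3 at 1.17 kb differed by 0.07 between KO NO and WT NO (SE 0.50, adjusted p = 0.994) and Efna1 at 1.13 kb by 1.39 (SE 0.79, adjusted p = 0.545). For Aldh1b1, Igfbpl1 at 4.65 kb differed by 1.51 (SE 0.42, adjusted p = 0.140). For Cyp2j6, its family member Cyp2j9 at 3.70 kb differed by 0.33 (SE 0.56, adjusted p = 0.926), and Cyp2j13 and Hook1 were not called. For Ephx2, Gulo and Ptk2b differed by 2.43 and −1.95 with adjusted p = 0.374 and 0.253. Beside Acot1, Acot6 was called and Riox1 and Dnal1 were not. Of the neighbours that are not members, Acot6 was the only one called in untreated cells, with the limits given above. The median difference of all tested genes on each member's chromosome was −0.03 to 0.10, close to that of all genes.

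Pathway genes around the members were counted in 12 lists, and few of them passed the test. The test called 0.788% of all genes as higher and 0.351% as lower in KO without RA, and 0.885% and 0.358% after RA. Without KO RA replicate 3 these shares were 4.43% and 4.35% without RA, and 4.42% and 5.44% after RA. The median difference of all genes was −0.02 and 0.09. At an unadjusted p under 0.05 stood 2011 of the 16502 genes without RA and 2899 after RA. In untreated cells 3 listed genes were called, all higher in KO. Acot6 is described above. Slc27a2, a very long-chain acyl-CoA synthetase and fatty acid transporter, stood at 0.915, 0.406 and 3.02 CPM in WT NO and at 43.5, 56.1 and 58.7 CPM in KO NO, a difference of 5.17 (SE 0.60, adjusted p = 0.00338). Gstp1, a glutathione transferase, had a mean of 10.4 CPM in WT NO and 144 CPM in KO NO, a difference of 3.79 (SE 0.62, adjusted p = 0.0168). Gstp1 has a close paralog, Gstp2, with which it can share reads, so that its own level is uncertain.

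After RA, Slc27a2 (6.17, SE 0.68, adjusted p = 0.00234) and Gstp1 (3.32, SE 0.61, adjusted p = 0.0286) were again higher in KO. Pla2g4a, the cytosolic phospholipase that releases arachidonic acid, stood at 0.0961, 0.0969 and 0.0477 CPM in WT RA and at 1.85, 0.953 and 9.11 CPM in KO RA (adjusted p = 0.0417). All 3 KO RA libraries of Pla2g4a were above the WT libraries, and KO RA replicate 3 held the highest level. Its summed counts in WT RA were 5, so that Pla2g4a too passed the filter through the KO groups and its call is a description. Them6, a thioesterase superfamily member, was lower in KO RA (−1.68, SE 0.26, adjusted p = 0.0165). Slc27a2 passed in all 18 alternatives in both comparisons. The other calls were lost in some, with highest adjusted p of 0.0967 and 0.159 for Gstp1 in NO and RA, 0.198 for Pla2g4a, 0.150 for Them6 and 0.130 for Acot6.

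By role, the lists stood as follows in untreated cells. Among 2 other epoxide hydrolases, 10 genes of P450 family 2 and its redox partners, 13 other aldehyde dehydrogenases and 12 other sugar transporters none was called, with median differences of −0.18, −0.02, 0.18 and 0.08. At an unadjusted p under 0.05 they held 0, 0, 1 and 1 genes. Without KO RA replicate 3, 1 aldehyde dehydrogenase was called higher and none of the other 3 lists held a call. DESeq2 called 0 in each of these 4 lists and limma-voom 0, 4, 5 and 1. Among 17 eicosanoid enzymes and 14 alcohol dehydrogenases and aldo-keto reductases none was called either, with 5 and 4 at an unadjusted p under 0.05, 3 and 1 by DESeq2 and 4 and 5 by limma-voom. Each of these lists held 1 gene called higher and 1 called lower without KO RA replicate 3. After RA, none of the 14 alcohol dehydrogenases and aldo-keto reductases was called, but 5 were without KO RA replicate 3 (1 higher and 4 lower), 4 with DESeq2 and 5 with limma-voom. The eicosanoid list held 1 call after RA, and 3 without KO RA replicate 3, all higher. In untreated cells, 1 each of 9 other thioesterases and 17 acyl-CoA synthetases was called higher, namely Acot6 and Slc27a2. Leaving out KO RA replicate 3 gave 1 thioesterase higher and 2 lower, and 1 synthetase higher.

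Regulator lists were similar. Of 24 tested PPAR target genes, which include many genes of fatty acid oxidation, none was called in KO NO or KO RA against WT, with medians of 0.06 and 0.27 and with 3 and 5 genes at an unadjusted p under 0.05. Without KO RA replicate 3, 3 and 1 were called. DESeq2 called 0 and 1 of them, and limma-voom 10 and 4. Of 23 NRF2 target genes, Gstp1 was called higher and the median was −0.19 in NO and −0.51 in RA. At an unadjusted p under 0.05, 2 were higher and 2 lower in NO, and 1 was higher and 8 were lower in RA. With KO RA replicate 3 left out, 2 were called higher and 2 lower in NO, and 1 higher and 4 lower in RA. DESeq2 called 3 in each comparison, and limma-voom 9 and 8. Of 7 AhR, CAR and PXR targets and 16 transcription factors of these pathways none was called in either comparison, with 2 and 2 at an unadjusted p under 0.05 in NO and 0 and 2 in RA. DESeq2 called 1 and 1 of them in NO and 0 and 1 in RA, and limma-voom 3 and 3 and then 0 and 2. Without KO RA replicate 3, 2 of the 7 targets were called higher in NO and none after RA. Of the 16 factors, 1 was called higher and 1 lower in NO, and 2 lower after RA. With DESeq2, 1015 and 1315 genes were called in all against 188 and 205, so that the counts in these lists depend on the test.

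**Figure D5:**
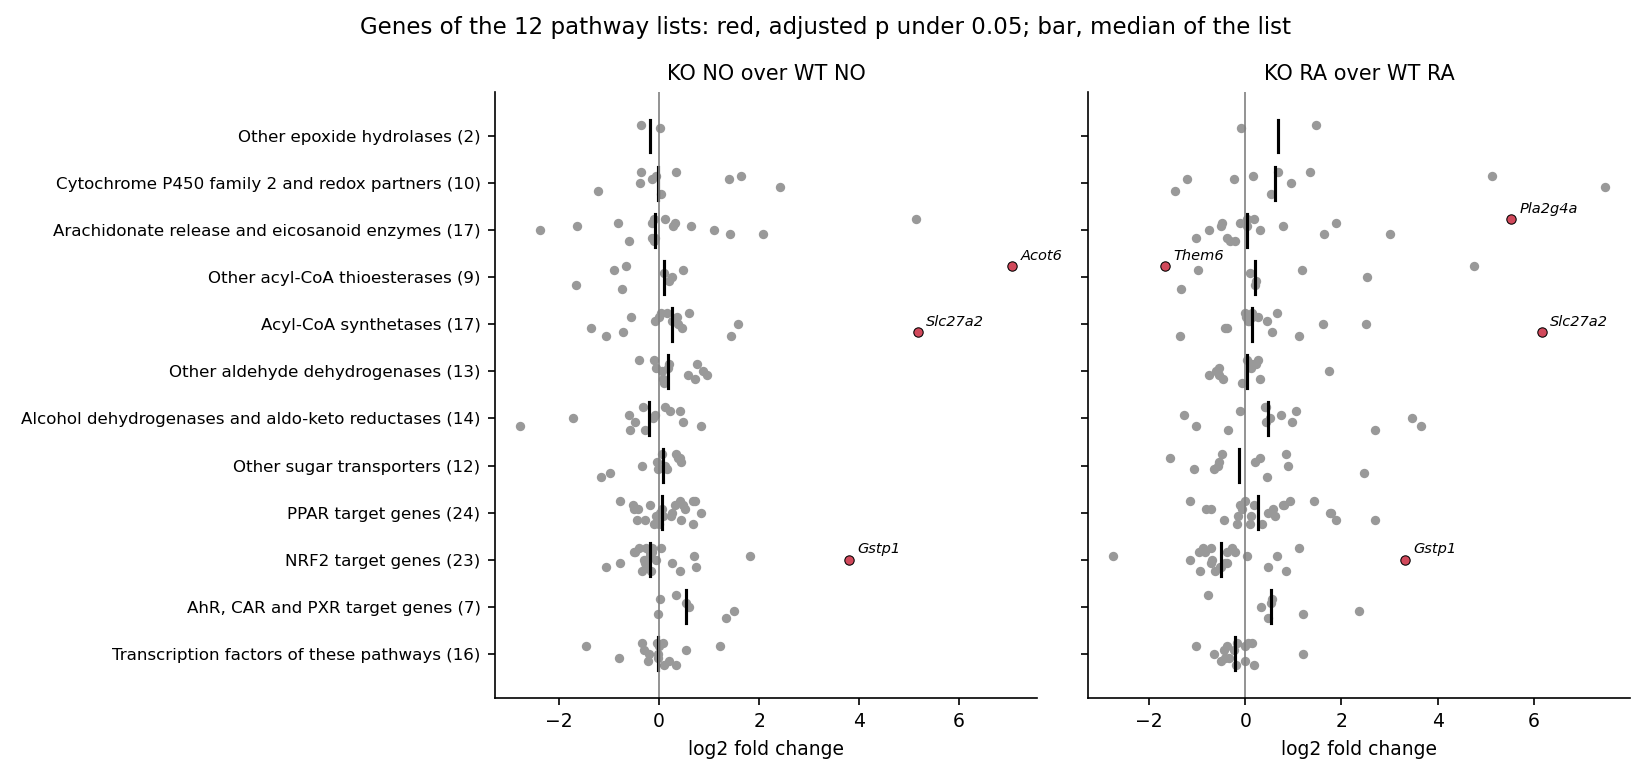
Log2 fold change of KO over WT for each tested gene of 12 pathway lists (rows, number of tested genes in brackets), without RA (left) and after RA (right). Red points passed an adjusted p under 0.05 and bars mark the median of a list. The called genes were Acot6, Slc27a2 and Gstp1 on the left and Pla2g4a, Them6, Slc27a2 and Gstp1 on the right, and list medians ran from −0.20 to 0.54 on the left.

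RA, averaged over both genotypes, moved more of the listed genes, as it did of all genes. The test called 8.54% of all genes for RA, so that the larger counts are not read as a result about these lists. Aldh1a2, the enzyme that makes retinoic acid from retinaldehyde, rose by 2.70 (SE 0.54, adjusted p = 0.0131), the only call among 13 aldehyde dehydrogenases, while the median of that list was −0.40. Akr1c13, an aldo-keto reductase with close paralogs that can share its reads, rose by 4.33 (SE 0.63, adjusted p = 0.00284). Akr1c14 rose as well (2.80, SE 0.75, adjusted p = 0.0413) and Cbr1, a carbonyl reductase, fell (−0.81, SE 0.19, adjusted p = 0.0243), which made 3 calls among 14 genes. Alox15, a lipoxygenase, fell (−2.81, SE 0.52, adjusted p = 0.00822), as 1 of 17 eicosanoid genes. None of 10 genes of P450 family 2 and its redox partners was called, with 5 lower at an unadjusted p under 0.05, and 3 by DESeq2 and 3 by limma-voom. Of all 16502 genes, 4405 were under that unadjusted p. Without KO RA replicate 3, 2 of the P450 list were called lower. That fit called 1 aldehyde dehydrogenase higher and 2 lower. It called 3 alcohol dehydrogenases and aldo-keto reductases higher and 4 lower, and 1 eicosanoid gene higher and 2 lower. Of all genes it called 11.9% higher and 11.8% lower.

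Among acyl-CoA genes, Slc27a2 fell with RA (−1.74, SE 0.41, adjusted p = 0.0254), as did Aacs (−0.89, SE 0.24, adjusted p = 0.0454), whereas Acss1, an acetyl-CoA synthetase of mitochondria, rose (1.73, SE 0.48, adjusted p = 0.0477). Acot13 rose (1.30, SE 0.32, adjusted p = 0.0298) and Them6 fell (−1.16, SE 0.18, adjusted p = 0.00362). Of 23 NRF2 target genes, Taldo1, G6pdx, Txnrd1 and Blvrb fell, by 0.63, 0.85, 0.92 and 1.25 on the log2 scale, and the median was −0.57 against 0.06 over all genes. Without KO RA replicate 3, 12 of them fell and 1 rose. Cd36 rose and Me1 fell among 24 PPAR targets, Cyp1b1 rose among 7 AhR, CAR and PXR targets, and Slc45a3 rose among 12 sugar transporters. Alox15, Them6, Aldh1a2, Akr1c13, Me1 and Taldo1 passed in every alternative run, and the other RA calls named here were lost in some, with a highest adjusted p of 0.117.

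The genes whose levels ran most like those of a member over the 12 libraries were found by the Pearson correlation of log2(CPM + 2) among 13095 genes. These values are a description, and the libraries share the groups. For Ephx2 they were Frrs1 (0.985) and Acer2, an alkaline ceramidase (0.984). For Cyp2j6 they were Galk2 (0.986) and Rhox5 (0.981), and for Slc50a1 Stxbp2 (0.984) and Rbm46 (0.983). Acot1 had Mep1b (0.946) and Asb4 (0.942), and Aldh1b1 had Gm50039 (0.973) and Zfp74 (0.971). The paralog controls had Rad21 (0.964) and Fzd7 (0.960) for Acot2, which dropped to 0.873 and 0.866 without KO RA replicate 3, and Gstt2 (0.923) and Ptgis (0.864) for Ephx1. No gene was the nearest of more than 1 member.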

How the data were processed

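Bulk mRNA-Seq of 12 NE-4C libraries was analysed, 3 in each of WT NO, WT RA, KO NO and KO RA, grouped by the deposited sample labels. The authors ran nf-core/rnaseq with STAR and Salmon on GRCm39 and deposited estimated counts per gene, scaled from TPM to each library's total, which corrects them for gene length, so that 1 count is not 1 fragment. The conversion affects low genes most, since the worth of a fragment depends on length.

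Counts were rounded and fitted in R 4.3.3 with edgeR 4.0.16, with TMM factors, filterByExpr at its defaults (16502 genes), 1 coefficient per group over all 12 libraries (8 residual degrees of freedom) and robust quasi-likelihood dispersions. A gene counted as called where its adjusted p (Benjamini-Hochberg, over all genes tested) was under 0.05, whatever its fold change. The scripts were tested on simulated data with a lower spread and no outlying library, which does not measure error rates in these data. The F statistic and the log2 fold change gave each standard error. The p-values measure the spread between passages of 1 WT and 1 KO line. Intervals of ratios of summed counts are exact binomial intervals and, like the floor of 3 counts, cover counting error only.

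The members and gene lists were chosen with earlier results of these data known. Only the RA effect averaged over both genotypes was tested for members. The genes named are the members, Faf2, the Acot, Cyp2j and Ephx paralogs, up to 4 called genes per list and comparison, the 2 nearest tested protein-coding genes on each side of a member and the 2 genes most like it (mean CPM of at least 1). Alternatives were DESeq2 1.42.0, its size factors in edgeR, other filters, limma-voom (limma 3.58.1) with quality weights, a replicate block, the libraries of the groups compared alone, each library left out, Acot1 to Acot6 as 1 row and CPM without TMM. Samples were not paired by replicate number in the main fit (2 of 18 pairs of same-numbered libraries correlated over 0.1). Positions and sequences came from GENCODE and the GRCm39 genome, and coding sequences were aligned with Biopython 1.88. Promoters were counted over 21770 protein-coding genes.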

Additional observations from a re-analysis of the deposited data

Results flagged for a closer look

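The fitted RA response of Acot1 was 1.99 (SE 0.62) in WT and −0.85 (SE 0.59) in KO. Without KO RA replicate 3 the KO value was −0.37 (SE 0.32), so that the sign in KO is not settled. All 3 WT RA libraries lay above the WT NO mean of 2.12 CPM, at 5.38 to 11.6 CPM. All 3 KO RA libraries lay below the KO NO mean of 73.9 CPM, at 7.63 to 59.4 CPM. The KO response minus the WT response was −2.84 on the log2 scale (SE 0.85) with all libraries and −2.37 (SE 0.45) without KO RA replicate 3, and the difference was not tested, since the untreated libraries chose the gene. KO RA replicate 1, at 59.4 CPM, lay above KO NO replicate 1, at 54.6 CPM, so that the KO groups overlapped. On the summed Acot1 to Acot6 counts the difference of responses was −1.68 (SE 0.73).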

How the results depend on the processing

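Of 754 values of the 7 genes under alternatives, 706 kept their direction and side of the threshold or moved by less than the spread between replicates. Many of the 754 left out a library outside the groups compared, where a difference can hardly move, so that this count does not measure robustness. The counts of genes called moved most. KO NO against WT NO had 188 calls, 1015 with DESeq2, 3566 with limma-voom, 718 from the 6 libraries compared alone, 43 with at least 10 counts in every library and 40 to 1520 with 1 library left out. KO RA against WT RA had 205, then 1315, 2987, 16, 80 and 19 to 1707. The averaged RA effect had 1410, then 3163 with DESeq2, 5798 with limma-voom, 935 with no filter beyond 1 count and 676 to 4112 with 1 library left out. Among the runs with 1 library left out, the most calls came without KO RA replicate 3 in each comparison, and the causes of the differences were not tested.

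With the replicate block, KO differed from WT in 56 genes without RA and 59 after RA, and 907 genes were called for the averaged RA effect, and Ephx2 passed in the last at −1.11 on the log2 scale (adjusted p = 0.042). The highest correlation of a same-numbered pair was 0.107. Whether same-numbered libraries shared a passage or a batch was not tested.

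For the averaged RA effect, the values that passed were −1.03 for Ephx2 and −0.71 for Aldh1b1 with DESeq2, −0.97 for Ephx2, 0.86 for Acot1 and −0.58 for Aldh1b1 with limma-voom, and −0.71 for Aldh1b1 with DESeq2 size factors. With 1 library left out they ranged from −1.22 to −0.85 for Ephx2, 0.39 to 0.81 for Acot1 and −0.89 to −0.62 for Aldh1b1. Averaged RA effects close to 0 changed sign: that of Acot2 (−0.01) was 0.0072 with DESeq2, 0.0040 with its size factors, 0.026 with at least 10 counts in every library, 0.14 with limma-voom and −0.15 to 0.18 with 1 library left out, and that of Cyp2j6 (0.01) was −0.011 with no filter beyond 1 count, −0.16 with limma-voom, −0.014 with the replicate block and −0.19 to 0.22 with 1 library left out. That of Slc50a1 ranged from −1.83 to 0.085. Differences without a test that moved by more than the spread were those of Slc50a1, whose WT counts are near 0: with 1 library left out, KO against WT ranged from 6.45 to 7.78 in NO and 7.68 to 11.2 after RA, the RA response in WT from −3.94 to −0.14 and the difference of responses from 0.45 to 4.23. KO against WT in NO was 7.46 for Slc50a1 with limma-voom, which also gave 4.55 for Cyp2j6 after RA and 0.053 for the difference of responses of Ephx2. The RA response of Cyp2j6 in WT ranged from −0.77 to −0.20 and the difference of responses of Ephx1 from −1.46 to −0.27. Summing Acot1 to Acot6 gave 3.25 in place of 5.12 for KO NO against WT NO. Depth limits Slc50a1 and Cyp2j6 in WT, where few counts were found.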
